A study of Arabidopsis thaliana with 12 samples.

Results

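The core low-oxygen induced genes of Arabidopsis thaliana are a set of loci whose mRNA rises when oxygen runs short. Here the set holds 32 genes, listed by locus, of 26007 genes with a row of their own in the deposited tables. It leaves out the plant cysteine oxidase, pyruvate decarboxylase, alcohol dehydrogenase, sucrose synthase and group VII ethylene response factor genes. RNA came from whole control seedlings and from whole seedlings kept with volatiles (labelled mVCs) given off by a fungus, Tolypocladium inflatum GT22, at 3, 24 and 48 h. Each of the 6 groups has 2 libraries. Strain, age, growth medium and oxygen level of the seedlings are not given in the sources used here, and nothing in the labels says that libraries came from separate plantings, so p-values may measure technical spread.

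In plants, group VII ethylene response factors activate low-oxygen genes. In air, plant cysteine oxidases use oxygen to mark these factors for breakdown, and when oxygen is scarce the factors persist and switch on fermentation, haemoglobin and many small genes of the core set. HRA1 and LBD41 are transcriptional regulators within the set, and HRA1 dampens the response as a feedback. Many core genes also answer to wounding, sugar status or ethylene in air.

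The tables give 1 FPKM value (fragments scaled by transcript length and sequencing depth) per gene and group, so the spread between libraries cannot be seen and no SD is given. Depth is unknown. A gene is said to have risen or fallen where the authors' deposited table gives it a q-value below 0.05, or where its adjusted p in the combined test over the times was below 0.05. The error beside a log2 fold change is implied by the authors' deposited table (fold change over statistic). This reading of the statistic, as a ratio of the log2 fold change to its own error, is an assumption. Of the 32 members, 25 were tested at all 3 times, 1 at 2 times and 2 at 1 time. The remaining 4 were tested as single genes at no time, because they share a row with a neighbour or are at or near 0. In all tables the tissue markers were those of whole seedlings. The summed FPKM of 4 shoot genes lay between 39337 and 52903, that of 4 root genes between 2367 and 2781, and that of 3 flower and seed genes between 0.246 and 1.78. None of the shoot or root markers had a q-value under 0.05. Of the flower and seed markers, the seed storage gene CRA1 stood at 0.94 FPKM in 3 h controls and 0.43 under the volatiles (q-value 0.999811 in the authors' deposited table), and AG and SESA1 were under 1 FPKM in every group.

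A small subset of the core genes was higher under the volatiles, and the other members passed no test. HRA1, LBD41, HB1, SAD6 and AT1G19530 each rose at 1 or more times. Taken over the 3 times together, HRA1, HB1, SAD6, AT1G19530 and AT3G27220 rose, by mean log2 fold changes between 0.68 and 1.28. None of the members fell by either measure.

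**Figure D1:**
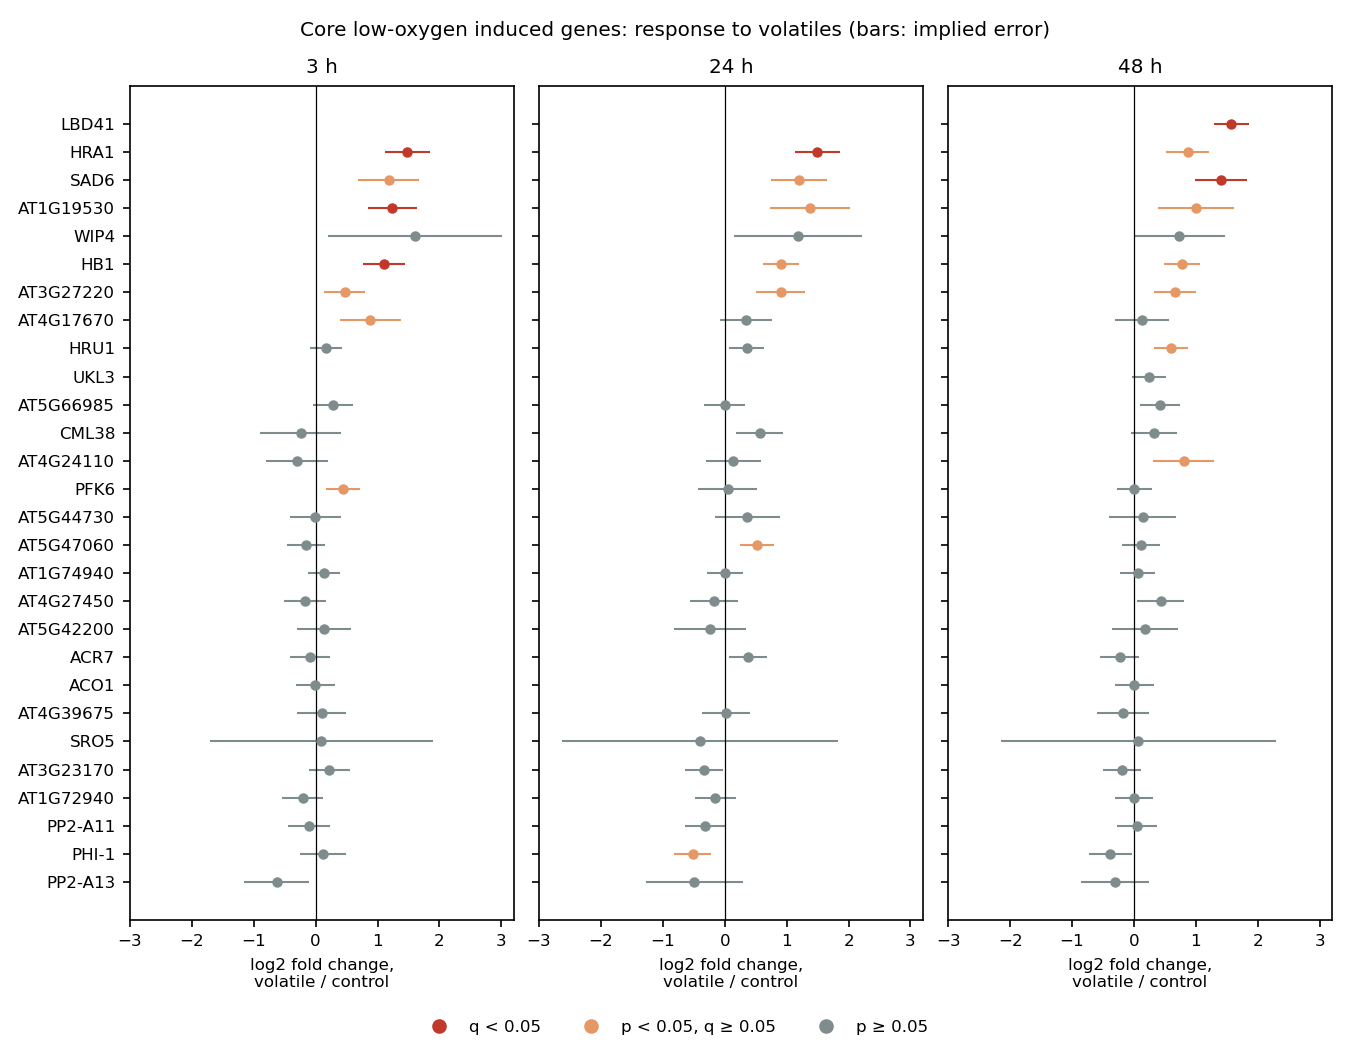
Log2 fold change (x axis, volatile over control) of the 28 members tested at 1 or more times, in the order of their mean, at 3, 24 and 48 h. Bars are the error implied by the authors' deposited table, red marks a q-value under 0.05, orange an unadjusted p-value under 0.05 and grey the rest; the upper rows lie to the right of 0 at every time shown, while the lower rows scatter around 0.

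HRA1 (AT3G10040, TAIR10 chromosome 3, 3096415 to 3098071) stood at 1.73 FPKM in controls and 4.82 under the volatiles at 3 h. The values at 24 h were 1.20 and 3.40 FPKM, and at 48 h 2.25 and 4.10 FPKM, control first. The volatile value was the higher at each time. In the authors' deposited table HRA1 rose 2.79-fold at 3 h (q-value 0.0443) and 2.82-fold at 24 h (q-value 0.0403), while for its 1.82-fold difference at 48 h the q-value was 0.179. LBD41 (AT3G02550, chromosome 3, 536505 to 537998), a LOB-domain protein, has a row of its own only at 48 h, where it rose from 13.1 to 39.0 FPKM. Its log2 fold change of 1.57 (implied error 0.29) was the highest among members at 48 h (q-value 0.0221 in the authors' deposited table). At 3 and 24 h LBD41 shares a row with its neighbour AT3G02540, which read 47.6 and 62.5 FPKM at 3 h and 54.0 and 60.9 FPKM at 24 h, control first. The p-values of that row in the authors' deposited table were 0.0194 and 0.382. At 48 h AT3G02540 alone stood at 49.8 and 43.5 FPKM, and no response of LBD41 alone can be read at 3 or 24 h.

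HB1 (AT2G16060, chromosome 2, 6982531 to 6983631), a class 1 haemoglobin that scavenges nitric oxide, read 5.71 and 12.3 FPKM at 3 h, 9.10 and 17.1 FPKM at 24 h, and 11.1 and 18.9 FPKM at 48 h, control first. The volatile value was the higher at each time, by log2 fold changes of 1.10, 0.91 and 0.77. HB1 rose at 3 h (q-value 0.0443 in the authors' deposited table), and its q-values at 24 and 48 h were 0.09996 and 0.0957. HRU1 (AT3G03270, chromosome 3, 761310 to 763115), a universal stress protein tied to hydrogen peroxide production in low oxygen, had the highest FPKM of the members with a row of their own in every group but the 24 h controls, where AT5G66985 was at 37.0. Its FPKM values were 48.1 and 54.1 at 3 h, 34.6 and 44.2 at 24 h and 35.0 and 53.1 at 48 h, control first. For the 48 h difference the authors' deposited table lists a p-value of 0.0014 with a q-value of 0.269. The rhodanese gene AT2G17850 was at or below 0.23 FPKM in every group and was not tested.

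Among members with metabolic roles SAD6 (AT1G43800, chromosome 1, 16577610 to 16579722), a stearoyl-ACP desaturase also known as FTM1, was the member that rose. Its levels were 0.98 and 2.23 FPKM at 3 h, 1.72 and 3.93 FPKM at 24 h, and 1.98 and 5.27 FPKM at 48 h, control first. Each volatile value was more than 2.2 times its control. SAD6 rose at 48 h (log2 fold change 1.41, implied error 0.42, q-value 0.0221 in the authors' deposited table). Its fold changes at 3 and 24 h, 2.26 and 2.29, had q-values of 0.504 and 0.248. PFK6, a phosphofructokinase of glycolysis, read 6.54 and 8.88 FPKM at 3 h (p-value 0.0241, q-value 0.999811 in the authors' deposited table). At 24 and 48 h its log2 fold changes were 0.05 and 0.01. ACO1, which makes ethylene in the last step of its synthesis, differed by log2 fold changes of -0.0068 at 3 h and 0.0049 at 48 h. The uridine kinase gene UKL3, the ACT-domain gene ACR7 and the hydrolase gene AT5G44730 had p-values of 0.118 or more wherever they were tested.

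**Figure D2:**
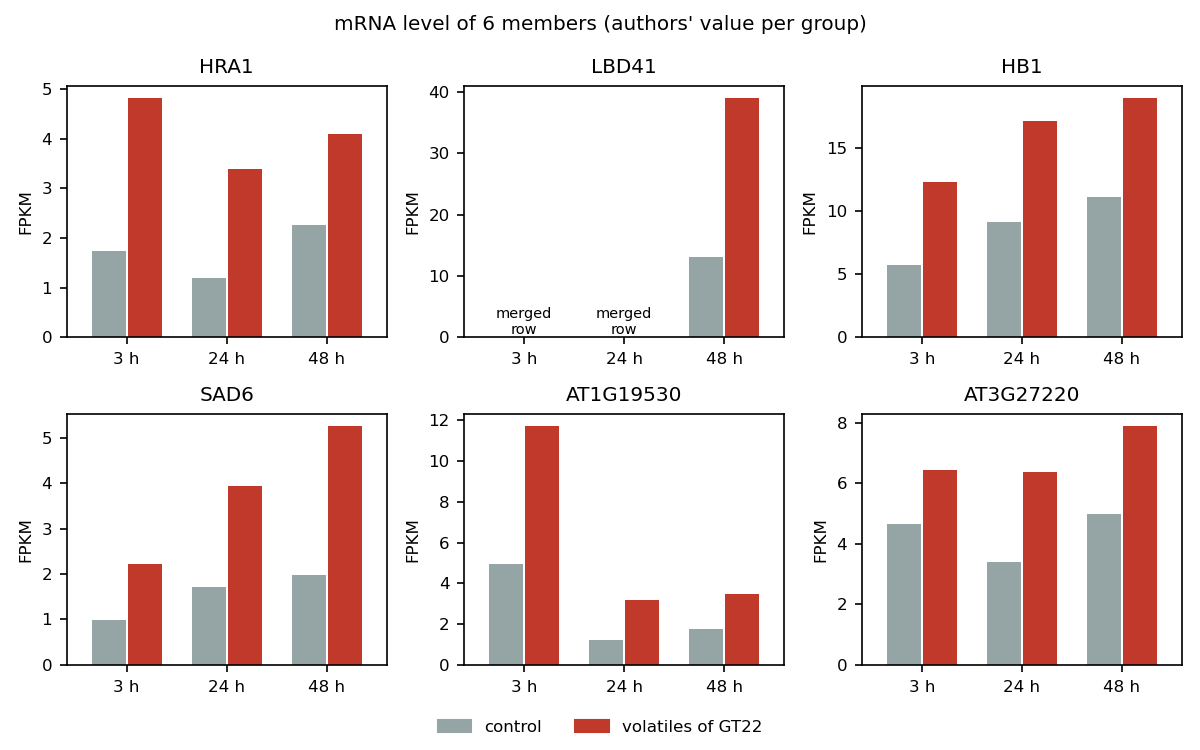
FPKM (y axis, a separate scale for each gene) of 6 members in control (grey) and volatile-exposed (red) seedlings at 3, 24 and 48 h, 1 value per group as the authors deposited it, with no error available. The red bar is the taller in every pair drawn, and LBD41 has bars only at 48 h because its row is merged with a neighbour before that.

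AT1G19530 (chromosome 1, 6763915 to 6764971) read 4.96 and 11.7 FPKM at 3 h, 1.23 and 3.18 FPKM at 24 h, and 1.74 and 3.49 FPKM at 48 h, control first. The volatile value was more than 2 times the control at each time. It rose at 3 h (log2 fold change 1.24, implied error 0.39, q-value 0.0443 in the authors' deposited table), with q-values of 0.913 and 0.999282 at the later times. AT3G27220 (chromosome 3, 10051612 to 10053678 at 3 h), a kelch-repeat protein gene, stood at 4.67 and 6.45 FPKM at 3 h, 3.40 and 6.35 FPKM at 24 h, and 4.97 and 7.90 FPKM at 48 h, control first. Its p-values in the authors' deposited table were 0.0463, 0.00165 and 0.00685, and no single time passed the q-value threshold. AT4G24110 read 2.06 and 3.59 FPKM at 48 h (p-value 0.0223, q-value 0.999282), after log2 fold changes of -0.30 and 0.14 at 3 and 24 h. Of the other little-characterised members, AT5G66985, AT4G39675 and AT3G23170 had p-values of 0.065 or more at every time.

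None of the 9 signalling members passed at any time, where at most 0.216% of all tested genes rose at any time. At 3, 24 and 48 h, 4, 4 and 8 of them were above 0, against 47.7%, 45.6% and 49.1% of all tested genes. CML38, a calmodulin-like calcium sensor found in stress granules in low oxygen, read 2.08 and 1.76 FPKM at 3 h, 3.22 and 4.75 FPKM at 24 h and 6.16 and 7.72 FPKM at 48 h, control first. Its log2 fold changes were -0.24, 0.56 and 0.33, with p-values of 0.589, 0.0725 and 0.231 in the authors' deposited table. The 3 related genes with the DUF581 domain, whose proteins bind the energy-sensing kinase SnRK1, also passed at no time. AT4G17670 read 2.76 and 5.08 FPKM at 3 h (p-value 0.0157, q-value 0.999811), AT5G47060 read 10.5 and 15.0 FPKM at 24 h (p-value 0.019, q-value 0.999605), and AT1G74940 lay within 0.13 log2 units of its control at each time. The phloem-protein-like genes PP2-A11 and PP2-A13, the TIR-domain gene AT1G72940, the RING-domain gene AT5G42200 and SRO5 had p-values of 0.0907 or more. PP2-A13 was the member with the lowest mean, at 20.3 and 13.1 FPKM at 3 h, 14.6 and 10.3 FPKM at 24 h and 15.9 and 12.9 FPKM at 48 h, control first.

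Members that answer to wounding, sugar or phosphate in air varied in sign. WIP4 (AT4G10270), a short wound-responsive protein, had volatile values above the control at each time, 1.27 and 3.87 FPKM at 3 h, 3.40 and 7.75 FPKM at 24 h and 9.03 and 15.0 FPKM at 48 h, control first. Its log2 fold change of 1.60 at 3 h was the highest of any member, but the implied error was 1.41 and the p-value 0.138 in the authors' deposited table. WIP4 overlaps annotated genes on the opposite strand. The sources used here do not say whether counting used strand, so reads of these genes cannot be told apart. Of the 32 members 9 overlap another annotated gene in this way or on their own strand, among them PFK6, AT5G47060, SRO5, PP2-A13, AT4G27450 and AT5G44730, and their values are uncertain to that extent. HRA1, LBD41, HB1, SAD6, AT1G19530 and AT3G27220 overlap none. PHI-1, a phosphate-responsive exordium-like gene, read 17.4 and 12.2 FPKM at 24 h (p-value 0.0157, q-value 0.999605), 3.94 and 4.29 FPKM at 3 h and 9.37 and 7.18 FPKM at 48 h, control first. AT4G27450 had log2 fold changes of -0.17, -0.17 and 0.43. AT4G33560 and AT1G33055 had only merged rows, with p-values of 0.220 or more, and AT5G10040 was listed at 0 at 3 and 24 h and shared a row at 48 h.

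Counted over the set, 3 of 26 tested members rose at 3 h, where 0.0494% of all 18220 tested genes rose in the authors' deposited table. At 24 h the count was 1 of 25, against 0.0335% of 17915 genes, and at 48 h it was 2 of 28, against 0.216% of 18031 genes. No member fell, where 0.0604%, 0.0893% and 0.0388% of genes fell at 3, 24 and 48 h. The members were chosen with earlier results of these data known. Counts beside the share over all genes, here and in the combined test, are therefore descriptions and no test of an excess. At an unadjusted p-value under 0.05, 7, 6 and 8 members were higher at 3, 24 and 48 h, against 0.96%, 1.04% and 1.59% of all genes, and 1 member, PHI-1, was lower at 24 h, against 2.03%. Taking p-values from the deposited statistic under a normal distribution left 0, 0 and 1 members with a call. That setting treats the statistic as a normal deviate, which the deposited p-values do not follow. The median log2 fold change of tested members was 0.13 at 3 h, 0.14 at 24 h and 0.16 at 48 h. With members averaging 1 FPKM or more, the 24 h median was 0.24. Over all tested genes the medians were -0.01, -0.02 and -0.0035. Members above 0 numbered 16 of 26, 16 of 25 and 23 of 28, where 47.7%, 45.6% and 49.1% of all tested genes were above 0. The 15 tested members that met neither condition for being described in full had 22 values above 0 and 20 below, a median of 0.0041 and a range from -0.63 to 0.56. Those conditions set aside members with low p-values or large changes, so values near 0 follow in part from the selection. Fewer responding cells and a smaller change per cell cannot be told apart in whole seedlings.

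The 3 contrasts have separate controls, so their p-values were combined for each gene over the times (Stouffer's method on the signed deposited p-values, Benjamini-Hochberg adjusted over all 16848 genes tested at each time). This asks which genes moved up or down when the signed evidence of the 3 times is added. A call does not require the same direction at each time and does not show that a change lasted. The gene IRT1, for example, was called higher (adjusted p of 0.00993 by Stouffer's method) and was higher at 2 of the times. Of the 25 members in this test 5 rose, against 0.202% of all genes, and 0 fell, against 0.231%; at an unadjusted p under 0.05 there were 8 higher and 1 lower, against 1.61% and 2.81% of all genes. HRA1 had a mean log2 fold change of 1.28 with an adjusted p of 1.4e-07. HB1, at 0.93, had the same adjusted p, and SAD6, at 1.26, had one of 1.7e-06. The p-values in the authors' deposited table go no lower than 5e-05, so the order of the genes at the top is not resolved. AT1G19530, at 1.21, had an adjusted p of 0.000153, and AT3G27220, at 0.68, one of 0.00286. Each of the 5 was higher at 3 of 3 times. HRU1 came next, at 0.37 with an adjusted p of 0.117, followed by WIP4, at 1.18 with an adjusted p of 0.568.

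The calls of HRA1, HB1 and SAD6 held with each time left out and with errors in place of p-values. AT1G19530 lost its call without 3 h (adjusted p of 0.0790) and with p-values from the normal statistic (0.0698). AT3G27220 lost it without 24 h (0.199), without 48 h (0.0964), with p-values from the normal statistic (0.369) and with fold changes weighted by implied errors (0.397). Weighted in that way, HRA1 had a log2 fold change of 1.27 with a 95% interval of 0.87 to 1.68, HB1 0.91 (0.57 to 1.26) and SAD6 1.27 (0.76 to 1.79). These intervals rest on the implied errors, and so on the assumed reading of the statistic.

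**Figure D3:**
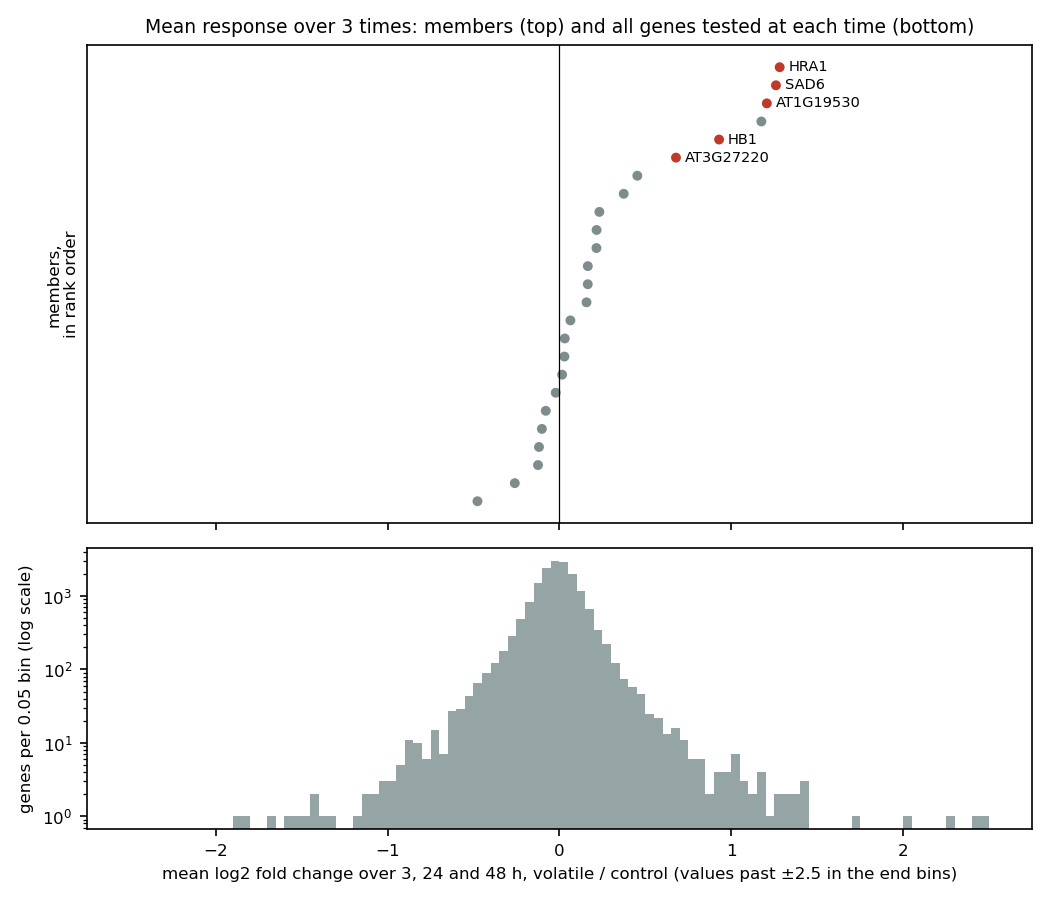
Mean log2 fold change over 3, 24 and 48 h (x axis) of the 25 members tested at each time (top, in rank order, red where the adjusted p was under 0.05) and of all genes tested at each time (bottom, number per bin on a log axis). The 5 named members lie between 0.68 and 1.28, to the right of the bulk of genes, which mostly lie between -0.51 and 0.46, and the grey point beside them is WIP4.

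The shape of the set was thus uneven. Of the 25 members, 6 had a mean response of at least 1.5-fold and 4 of at least 2-fold, while 15 lay within 0.25 log2 units of 0, where 90.6% of all genes lay. Among 16836 genes with a value above 0 in every group, 0.594% reached 1.5-fold and 0.184% reached 2-fold. Members higher at each of the 3 times numbered 10, against 13.9% of all genes, and PP2-A13 alone was lower at each, against 18.4%. Across members, fold changes at 2 times were correlated, with Pearson's r of 0.78 for 3 and 24 h (n = 25), 0.66 for 3 and 48 h (n = 26) and 0.79 for 24 and 48 h (n = 25). Spearman's rho was 0.53, 0.49 and 0.73. These describe the members, which share libraries within a time and are not replicates. The same r over all genes averaging 1 FPKM or more was 0.12, 0.12 and 0.14. The sign was the same at both times for 15 of 25, 15 of 26 and 17 of 25 members. For those genes the shares were 53.0%, 56.3% and 55.8%, so r does not describe agreement across the whole set.

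No member's response was shown to differ between times. The difference of 2 fold changes was tested with the implied errors (normal test, Benjamini-Hochberg adjusted over all genes averaging 1 FPKM or more). None of 24 members passed between 3 and 24 h, of 25 between 3 and 48 h, or of 24 between 24 and 48 h. No member had an unadjusted p under 0.05, where 0.298%, 0.456% and 0.445% of all genes did. These shares lie far under the threshold itself, so the implied errors may be too wide, and the test could show few differences. Over all genes 0%, 0.0246% and 0.00618% passed. HRA1 had log2 fold changes of 1.48 at 3 h and 0.87 at 48 h, and the difference of -0.62 had a 95% interval of -1.60 to 0.36. For HRU1 the difference was 0.43, with an interval of -0.29 to 1.16. Intervals differed in width from member to member, as these show, and a difference inside a member's interval was not excluded.

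Genes of the same pathway outside the set were read for context, from a list of 17 also chosen with earlier results of these data known. At 3, 24 and 48 h the numbers that rose in the authors' deposited table were 2 of 16, 2 of 13 and 2 of 16 tested, namely PCO1, a plant cysteine oxidase, and PDC1, a pyruvate decarboxylase, and 0 fell. In the combined test 4 of 13 rose. PCO1 had a mean log2 fold change of 2.27 and PDC1 of 1.04, both with an adjusted p of 1.8e-08 by Stouffer's method. PCO2, the other low-oxygen inducible oxidase, was at 1.03 (adjusted p of 0.000313), and ADH1, the alcohol dehydrogenase of ethanol fermentation, at 1.15 (adjusted p of 0.00304). Weighted by implied errors, PCO2 and ADH1 lost their calls, with adjusted p of 0.0843 and 0.208.

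Ethylene and touch also induce some members in air. Of 7 tested ethylene-responsive genes 0 passed at any time. At most 0.216% of all genes rose at any time, so lists this short, here and for touch, can show little. At an unadjusted p under 0.05 1 was higher at 3 h and 0 at the later times, against 0.96%, 1.04% and 1.59% of all genes. That gene was ETR2, an ethylene receptor, at 7.60 FPKM in controls and 12.8 under the volatiles at 3 h (q-value 0.0749, as the authors' deposited table lists it). In the combined test ETR2 had a mean log2 fold change of 0.40, with an adjusted p of 0.0704 by Stouffer's method. The list's medians were 0.14, -0.01 and -0.11 at 3, 24 and 48 h. Of 5, 4 and 5 tested touch-induced genes 0 passed, with medians of 0.04, -0.21 and 0.07. TCH3, a calmodulin-like touch gene, was the one with a p-value under 0.05, at 73.4 and 110.9 FPKM at 48 h, control first (q-value 0.165). Whether either stimulus had a part in the members' rise was not tested.

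The upstream sequence of the members was searched for AAACCA, known as the GT motif of the anaerobic response element of maize alcohol dehydrogenase. Both strands of the 300 bases before each gene's start were read (RefSeq, TAIR10.1). The motif was in 13 of 32 members (40.6%) and in 31.8% of 27443 protein-coding genes. Of the members that rose in the combined test, SAD6 holds it, and HRA1, HB1, AT1G19530 and AT3G27220 do not. A longer string, AAACCA followed after any 3 bases by GC, contains the first. It was in 2 of 32 members (6.25%), WIP4 among them, and in 0.962% of all genes. CACGTG was in 3 members (9.38%, against 7.09% of genes), GCCGCC in 3 (9.38%, against 2.26%), and TTGAC in 13 (40.6%, against 50.4%). A match describes the letters and is no evidence of binding. The upstream sequences of WIP4, which holds the longer string at 2 places, and of 2 members that rose in the combined test follow, 5′ to 3′ on the strand of the gene. Capitals mark the longer string in WIP4 and AAACCA in SAD6, and HRA1 is shown as a gene that rose without a match. The spans are chr4:6374492-6374656 (plus strand), chr1:16577221-16577520 (plus) and chr3:3098418-3098717 (minus).
WIP4: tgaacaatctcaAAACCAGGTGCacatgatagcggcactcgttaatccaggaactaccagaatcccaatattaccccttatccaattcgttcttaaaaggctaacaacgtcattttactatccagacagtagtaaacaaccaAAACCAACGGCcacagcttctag
SAD6: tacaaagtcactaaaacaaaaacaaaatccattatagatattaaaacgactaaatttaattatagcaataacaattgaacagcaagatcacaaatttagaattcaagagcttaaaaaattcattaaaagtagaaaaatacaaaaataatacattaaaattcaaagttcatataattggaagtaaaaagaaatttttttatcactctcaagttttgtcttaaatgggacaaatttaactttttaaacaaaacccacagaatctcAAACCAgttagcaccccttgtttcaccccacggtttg
HRA1: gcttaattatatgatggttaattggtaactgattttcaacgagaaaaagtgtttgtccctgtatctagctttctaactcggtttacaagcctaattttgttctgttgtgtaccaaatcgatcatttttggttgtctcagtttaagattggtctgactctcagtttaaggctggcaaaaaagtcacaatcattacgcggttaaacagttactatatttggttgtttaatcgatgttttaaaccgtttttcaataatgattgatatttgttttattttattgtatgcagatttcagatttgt

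The SAD6 match lies 32 to 37 bases before the annotated start, and the WIP4 stretch covers bases 242 to 78 before it. For HRA1 and SAD6 the RefSeq gene begins upstream of the start in the deposited tables, so the windows shown, and the distance of the SAD6 match, depend on the annotation.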

How the data were processed

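RNA from whole seedlings was sequenced in 12 libraries, 2 per group. The submitters' processing notes name Trimmomatic 3.6, TopHat and the TAIR10 build. Columns are laid out as Cuffdiff writes them, per the file headers, but the sources used here name no program for this step. The authors gave each gene 1 FPKM per group. For the contrast at each time the authors also deposited a test statistic (a score), a p-value and a q-value. Log2 fold changes were recomputed without a pseudocount, since 446 to 520 deposited cells were unreadable. Rows without a gene name, at most 1.29%, were not used. Rows merging several genes were kept apart. Of several rows for 1 gene, a tested one was taken first and then the most abundant.

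The 3 contrasts share no library. They were combined by Stouffer's method on the signed deposited p-values (scipy 1.17.1) with Benjamini-Hochberg adjustment over 16848 genes, and responses were compared between times by a normal test on implied errors. The members and lists were chosen with earlier results of these data known. Members are named with values where a p-value was under 0.05 or a log2 fold change reached 1 in size at some time. Genes of other lists are named at a q-value under 0.05, while PCO2, ADH1, ETR2 and TCH3 were named after their values were seen. CML38, PP2-A13, ACO1, AT4G27450, AT1G74940 and the members without a row of their own were given beyond that rule. Promoters are shown for 2 of the 4 members with the smallest combined p-values, HRA1 and SAD6. The upstream region of HB1 overlaps a neighbouring gene and that of AT1G19530 holds no match. The WIP4 stretch was chosen after the search, and 1 further upstream sequence is not reported here. Alternatives covered thresholds, pseudocount, filters, scaling, rows, the p-value used and each time left out. Sequences are from RefSeq TAIR10.1. Every row of a lone gene overlapped that gene there, and about 14.0% had the same bounds.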

Additional observations from a re-analysis of the deposited data

How the results depend on the processing

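No paired analysis was possible because the tables hold 1 value per group, so leaving out each replicate was not run either. The number of members called at 3, 24 and 48 h, which was 3, 1 and 2, became 0, 0 and 1 with p-values from the deposited statistic under a normal distribution, and 3, 2 and 3 with a q-value under 0.1. With that threshold 1 ethylene or touch gene, ETR2, passed at 3 h in place of 0. The 5 members that rose in the combined test became 3 with those p-values, a setting chosen after seeing the data, and 4 or 5 under the other alternatives. The members' median log2 fold change ranged over 0.11 to 0.13 at 3 h, 0.11 to 0.24 at 24 h and 0.14 to 0.19 at 48 h. The 24 h median moved by over 1.5 times, from 0.14 to 0.24, with a mean of at least 1 FPKM. The tests between times passed 0 members with no filter and with a pseudocount. Counting merged rows, also chosen after seeing the data, changed no count of calls. Causes were not tested. Depth is unknown, so limits on low genes such as AT2G17850 cannot be given.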
